A study of Rattus norvegicus with 25 samples.

Results

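Collagen, laminin and ADAMTS transcripts were followed in the striatum of rats with a dopamine lesion, across levodopa alone and levodopa with either of 2 doses of trapidil. The members were all genes whose symbol is that of a collagen chain (Col followed by its number and chain), a laminin chain (Lama, Lamb or Lamc with a number) or a numbered ADAMTS protease, and they were chosen by a summed count of at least 100 over the 25 libraries, a value that takes no account of the arms. Of 72 such symbols among 28909 gene names, 59 were members: 34 collagens, 10 laminins and 15 ADAMTS proteases. Col1a2 and Col23a1 were listed at 0 in every library, and the other 11 had 1 to 99 counts. Cldn5, a core tight junction gene of brain endothelium, was listed at 0 as well, so the annotation or counting may not assign reads to such genes, and a 0 is not read here as a level. Closest to the limit were Adamts14 with 147 counts inside it, and Col15a1 with 87 and Adamts8 with 86 outside it. The low-count filter of the test removed Adamts14, so 58 members were tested.

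Collagens are triple-helical proteins of the extracellular matrix that form fibrils, sheets or transmembrane rods, and laminins are cross-shaped trimers of an alpha, a beta and a gamma chain. In the brain, collagen IV and laminins build the basement membranes around blood vessels and under the pia, while most of the remaining matrix consists of hyaluronan and proteoglycans rather than fibrils. ADAMTS proteases are secreted metalloproteinases; one branch cuts aggrecan, versican, brevican and related proteoglycans, another trims procollagens, and several others act on microfibrils or on von Willebrand factor.

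The animals were female Sprague Dawley rats lesioned with 6-hydroxydopamine (6-OHDA), a toxin of catecholamine neurons, and then randomised. All 3 arms carried the lesion and received levodopa at 6 mg/kg QD, the dopamine precursor, with benserazide named in the series title. The first arm received nothing further (n = 5), the second also trapidil at 7.5 mg/kg BID (n = 10) and the third trapidil at 15 mg/kg BID (n = 10). Trapidil is a triazolopyrimidine vasodilator that opposes platelet-derived growth factor signalling. Dosing lasted 14 days and the striatum on the lesioned side was taken on day 15, tied to 1 hour of dosing without a word on before or after. Unlesioned or untreated striatum was not analysed here, so each comparison is between lesioned, levodopa-treated animals, 1 library each.

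Library totals were 16535828 to 19274429 counts in the levodopa arm, 10838513 to 18794463 at 7.5 mg/kg and 13862132 to 20532290 at 15 mg/kg. The members took 0.0812 to 0.112% of them in the levodopa arm, 0.0762 to 0.115% at 7.5 mg/kg and 0.0753 to 0.107% at 15 mg/kg. Markers of striatal spiny projection neurons summed to 9525 to 16890 CPM (counts scaled to a common library total) in the levodopa arm, 13310 to 16900 with 7.5 mg/kg and 12680 to 16410 with 15 mg/kg, as striatal tissue has them. Levodopa replicate 2 stood apart. Its endothelial markers summed to 1002 CPM, against 560.5 to 609.1 CPM in the other 4 levodopa animals, and its oligodendrocyte markers to 19950 CPM, against 10920 to 14130 CPM. It also had the lowest spiny neuron sum of all 25 animals, 9525 CPM. The 7.5 mg/kg replicate 1 had the smallest library. It also had the highest oligodendrocyte and endothelial marker sums of its arm, 16690 and 630.7 CPM.

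Only 1 member was called, a share close to that over all genes, and the call ended without levodopa replicate 2 or without replicate 3. This member was Adamts4, an aggrecan- and brevican-cleaving protease, which was lower at 15 mg/kg. It was 1 of 58 members tested (1.72%), where 185 of 14142 genes (1.31%) passed edgeR's quasi-likelihood test at an adjusted p under 0.05 for 15 mg/kg against levodopa, 1.00% lower and 0.304% higher. At 7.5 mg/kg no member was called, where the share over all genes was 0.0283%, and none was called between the doses, where it was again 0.0283%. At an unadjusted p under 0.05, 14 members stood out at 15 mg/kg (24.1%, against 19.5% of all genes), 11 of them with a negative log2 fold change, where 11.2% of all genes had one, and 3 with a positive one, where 8.26% did. At 7.5 mg/kg 13 members did (22.4%, against 11.7%), 10 of them negative (6.64% of all genes) and 3 positive (5.02%). Between the doses 4 did (6.9%, against 3.63%), 1 higher at 15 mg/kg (1.49% of all genes) and 3 lower (2.14%). Ranges without overlap between an arm and levodopa occurred for 1 member at 15 mg/kg (0.707% of all genes, 0.410% lower) and for none at 7.5 mg/kg (0.0919%, 0.0636% lower). DESeq2 called 4 members among 655 genes at 15 mg/kg, none among 53 at 7.5 mg/kg and none among 6 between the doses. With limma-voom it was 3 members among 715 genes, 1 among 102 and none among 13.

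The plot of fold changes shows the lean behind these counts. At 15 mg/kg the log2 fold change against levodopa was negative for 40 members and positive for 18, with a median of -0.20, beside a median of 7e-04 over all genes tested. The counts were also 40 and 18 at 7.5 mg/kg, with a median of -0.11 beside 0.0037 over all genes. Both comparisons use the same 5 levodopa animals. All 8 basement membrane and other network collagens and all 6 proteoglycan-cleaving ADAMTS had a negative value at either dose. The 10 fibrillar collagens had 6 negative and 4 positive values at 15 mg/kg. Some of the negative values lay within 1 standard error of 0, as for Col4a2 (-0.06 ± 0.10) and Adamts5 (-0.09 ± 0.28) at 15 mg/kg. Without levodopa replicate 2, Col4a4 turned to 9e-04 at 7.5 mg/kg. At 15 mg/kg Adamts9 was then -0.13 and Adamts4 -0.52.

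**Figure D1:**
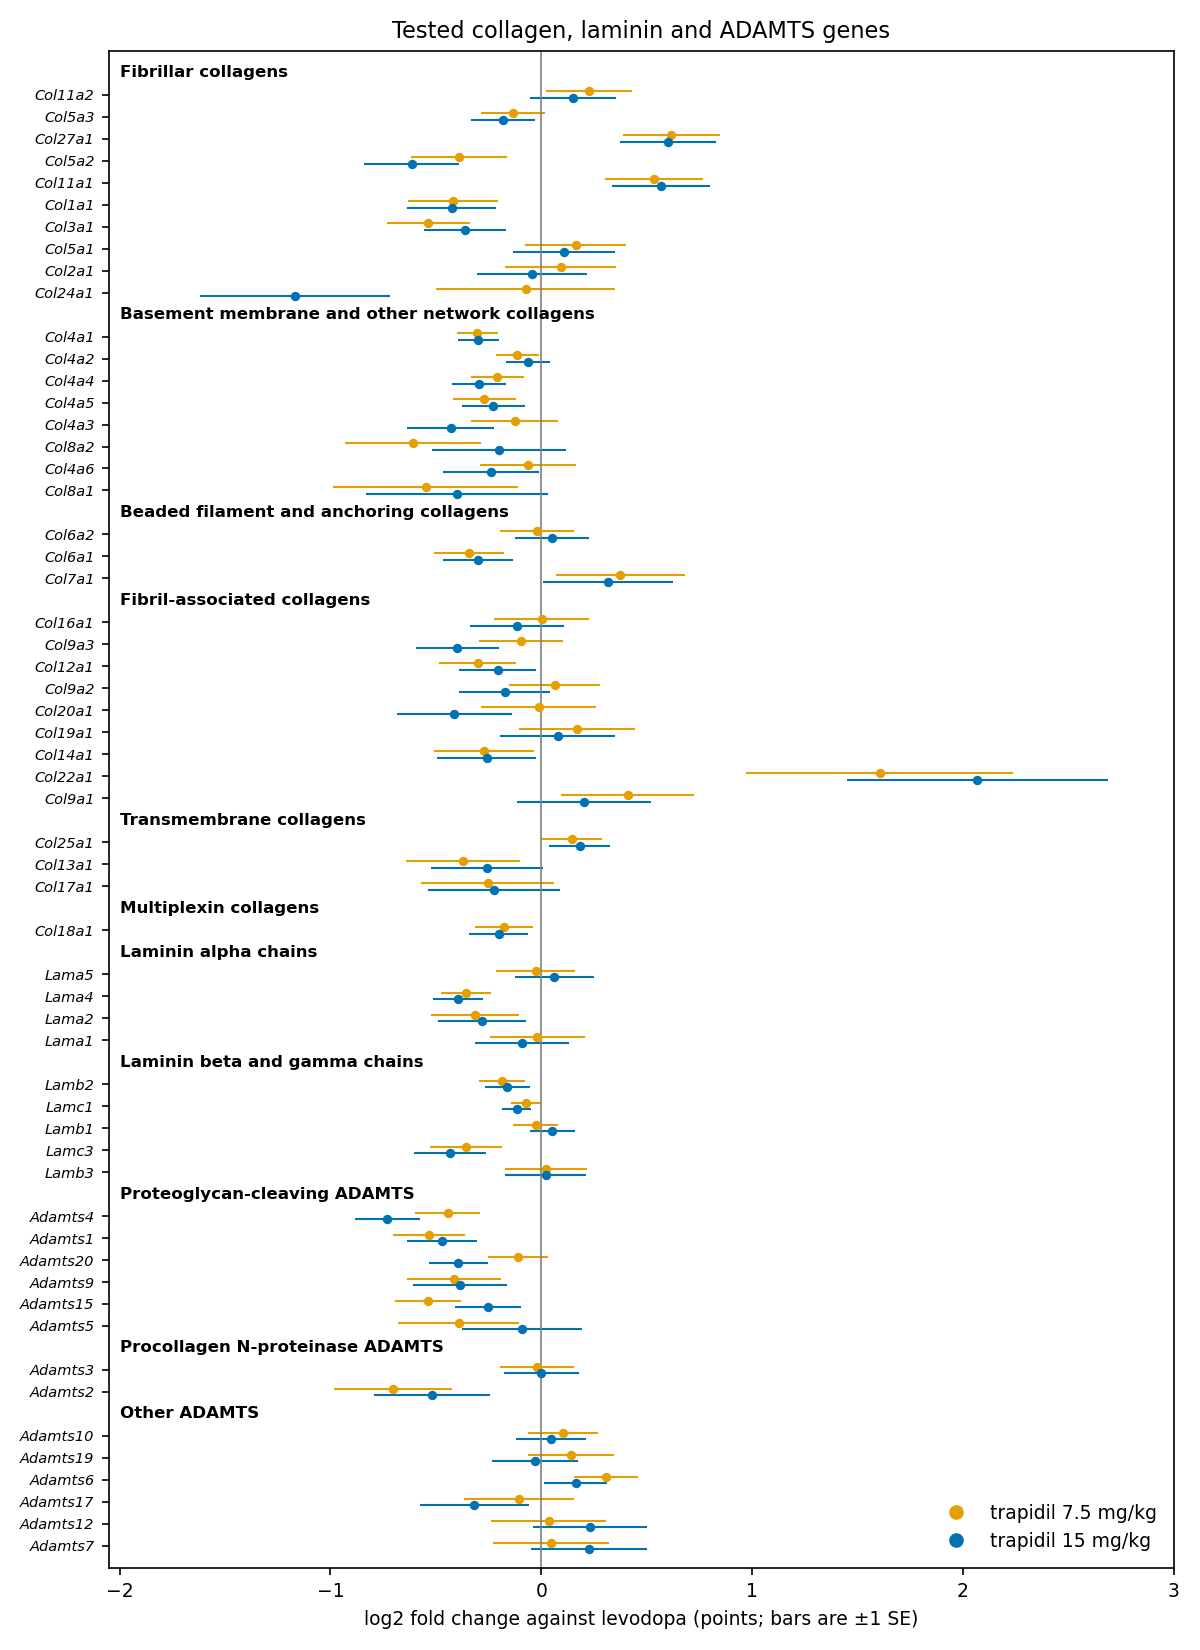
Log2 fold change against levodopa (horizontal axis) of the tested members by role, 1 of them left out, with the 7.5 mg/kg dose in orange, the 15 mg/kg dose in blue and bars of 1 standard error. Network collagens and proteoglycan-cleaving ADAMTS lie left of 0 at both doses, Col22a1 lies farthest right (2.07 at 15 mg/kg) and Col24a1 farthest left (-1.17 at 15 mg/kg).

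The proteoglycan-cleaving proteases held the one call. Adamts4 had 63.9, 99.1, 59.8, 51.4 and 49.9 CPM in the levodopa animals, 33.95 to 63.5 CPM (median 47.6) at 7.5 mg/kg and 29.2 to 53.99 CPM (median 38.5) at 15 mg/kg. The level was lower at each higher dose in mean and median, the ranges of the arms overlapped, and levodopa replicate 2 was the highest of all animals. The means were 64.8 ± 20.01 CPM in the levodopa arm, 47.7 ± 10.3 with 7.5 mg/kg and 39.02 ± 7.21 with 15 mg/kg (SD, n = 5, 10 and 10). The log2 fold change at 15 mg/kg was -0.73 ± 0.15 (edgeR adjusted p = 0.0217; 10 of 10 animals below the levodopa mean). At 7.5 mg/kg it was -0.44 ± 0.15 (edgeR adjusted p = 0.297; -0.24 without levodopa replicate 2), and between the doses -0.29 ± 0.13 (edgeR adjusted p = 0.999).

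The Adamts4 call rested on single levodopa animals. Without levodopa replicate 2 the log2 fold change was -0.52 (edgeR adjusted p = 0.137), and without replicate 3 it was -0.76 (edgeR adjusted p = 0.0551). In mouse brain Adamts4 is made by oligodendrocytes, and markers of these cells moved with it here. Of 12 oligodendrocyte markers, none at 0, all 12 had a negative log2 fold change at 15 mg/kg and 6 fell, Opalin by 0.74 ± 0.16 (edgeR adjusted p = 0.0217). Their summed level was 10920 to 19950 CPM in the levodopa arm, 7553 to 16690 with 7.5 mg/kg and 6689 to 14080 with 15 mg/kg. All 6 of these marker calls likewise ended without levodopa replicate 2 and without replicate 3. With the mean of these markers as a covariate, an alternative chosen after seeing the data, the Adamts4 value was -0.16 ± 0.09 (edgeR adjusted p = 0.765). In whole tissue, fewer cells of a type and less RNA per cell cannot be told apart.

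Across the 25 libraries log2 Adamts4 followed the log2 sum of the oligodendrocyte markers with Pearson's r = 0.94 and Spearman's rho = 0.93. Both permutation p-values were 1e-05, the smallest that 100000 permutations can give (adjusted p = 0.00029 over 58 members). The r was 0.93 without the 2 libraries farthest from the median marker sum, and it was 0.90 within the 7.5 mg/kg arm and 0.95 within the 15 mg/kg arm (n = 10 each). The relation therefore held among animals given the same dose. Adamts4 also followed the endothelial marker sum, with r = 0.74 and rho = 0.64 (permutation adjusted p = 0.00116 and 0.0162). That r was 0.65 without the 2 farthest libraries, and 0.63 and 0.60 within the 7.5 and 15 mg/kg arms. In the RefSeq annotation of GRCr8, Adamts4 shares part of its span with another protein-coding gene, as 5 of the 59 members do. The strand setting of the counting was not given in the sources used here, so reads of the shared stretch cannot be assigned.

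**Figure D2:**
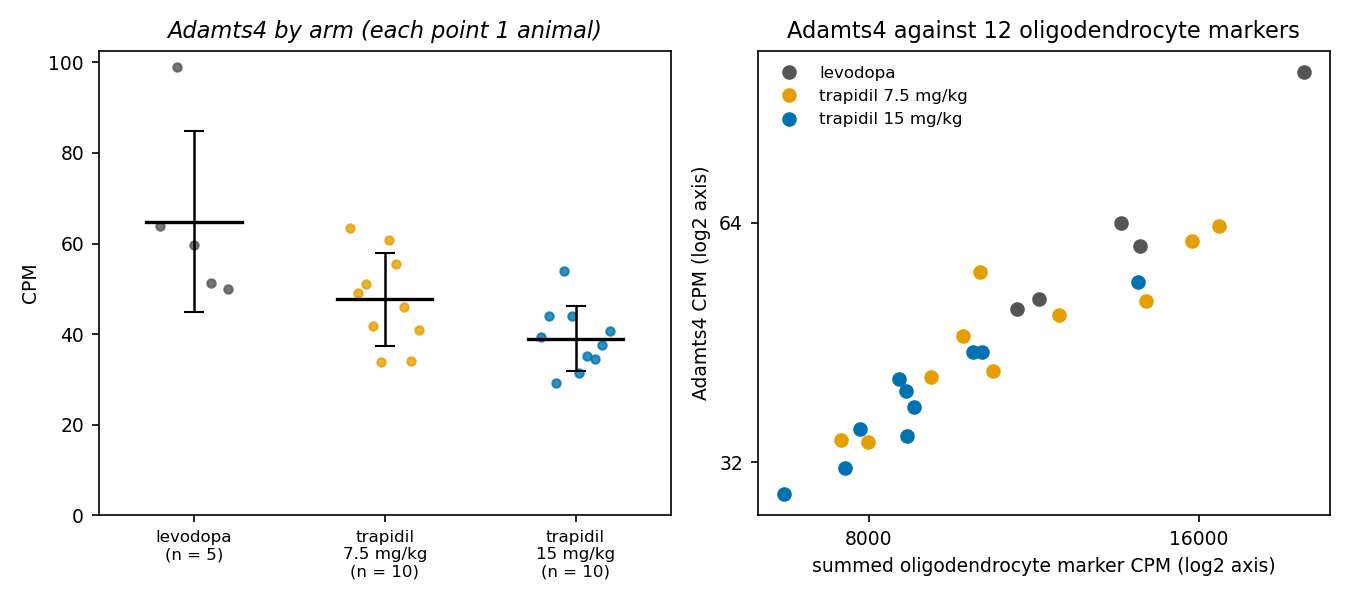
Left, Adamts4 in CPM for each animal by arm, with the mean and SD as line and bar; right, the same values against the summed CPM of 12 oligodendrocyte markers, both axes on a log2 scale. The 15 mg/kg animals lie between 29.2 and 54.0 CPM and the levodopa animals between 49.9 and 99.1 CPM, and Adamts4 is higher in animals with a higher marker sum in each arm.

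The other 5 tested members of this branch were not called. Adamts1, which cuts versican and aggrecan, had 9.26, 10.1, 6.27, 5.38 and 7.86 CPM in the levodopa animals, 4.08 to 9.54 CPM (median 4.96) at 7.5 mg/kg and 4.15 to 6.82 CPM (median 6.07) at 15 mg/kg. At 7.5 mg/kg replicate 1 reached into the upper levodopa values, while every other trapidil animal lay below 3 of the 5 levodopa animals. The fold change on the log2 scale was -0.47 ± 0.17 at 15 mg/kg (edgeR adjusted p = 0.121; 10 of 10 animals below the levodopa mean) and -0.53 ± 0.17 at 7.5 mg/kg (edgeR adjusted p = 0.251). Adamts9, a versicanase also tied to basement membranes, had 3.69, 7.22, 3.34, 4.22 and 3.45 CPM in the levodopa animals, 1.93 to 4.62 CPM (median 3.23) at 7.5 mg/kg and 2.06 to 5.41 CPM (median 3.12) at 15 mg/kg. Its value at 15 mg/kg, -0.39 ± 0.22 (edgeR adjusted p = 0.34), was -0.13 without levodopa replicate 2, the highest animal.

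Adamts15 and Adamts20, both versican-cleaving, followed different orders of the arms; they were chosen after their values were seen. Adamts15 had 3.75, 3.21, 3.401, 2.59 and 3.51 CPM in the levodopa animals, 1.47 to 2.87 CPM (median 2.32) at 7.5 mg/kg and 1.91 to 3.79 CPM (median 2.86) at 15 mg/kg, so the 7.5 mg/kg arm was lowest, and both trapidil arms overlapped the levodopa range. The 7.5 mg/kg dose had a log2 fold change of -0.54 ± 0.16 against levodopa (edgeR adjusted p = 0.202), and the value was 0.29 ± 0.13 between 15 and 7.5 mg/kg (edgeR adjusted p = 0.999). Adamts20 had 5.07, 6.72, 7.04, 4.54 and 6.22 CPM in the levodopa animals, 3.99 to 7.58 CPM (median 5.56) at 7.5 mg/kg and 3.62 to 5.62 CPM (median 4.42) at 15 mg/kg, so the 15 mg/kg arm was lowest, again with overlap. Its log2 fold change was -0.39 ± 0.14 at 15 mg/kg (edgeR adjusted p = 0.125) and -0.28 ± 0.12 between 15 and 7.5 mg/kg (edgeR adjusted p = 0.999). Adamts5, an aggrecanase best known from cartilage, averaged 1.495 ± 0.7797 CPM in the levodopa arm, 1.12 ± 0.457 with 7.5 mg/kg and 1.4 ± 0.405 with 15 mg/kg (SD, n = 5, 10 and 10).

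Procollagen-trimming ADAMTS, which remove the amino-terminal propeptide of fibrillar collagens, gave no call among the 2 that could be tested. Adamts2 averaged 1.47 ± 0.521 CPM in the levodopa arm, 0.904 ± 0.408 with 7.5 mg/kg and 1.03 ± 0.319 with 15 mg/kg (SD, n = 5, 10 and 10), with log2 fold changes of -0.52 ± 0.28 at 15 mg/kg (edgeR adjusted p = 0.305; -0.34 without levodopa replicate 5) and -0.70 ± 0.28 at 7.5 mg/kg (edgeR adjusted p = 0.355). Adamts3, which in mice also matures the lymphatic factor Vegfc, had 29.6, 9.32, 35.9, 32.3 and 39.04 CPM in the levodopa animals, 22.8 to 36.02 CPM (median 29.4) at 7.5 mg/kg and 24.9 to 35.9 CPM (median 28.8) at 15 mg/kg. The trapidil arms had nearly the same median, and levodopa replicate 2 was by far its lowest animal. Adamts14 had 0.0716 to 0.836 CPM over all animals and was not tested. Among the 6 other ADAMTS, fold changes ranged from -0.32 for Adamts17 to 0.23 for Adamts12 at 15 mg/kg, none with an unadjusted p under 0.05, and Adamts10, a microfibril-associated protease, averaged 19.6 ± 4.25 CPM in the levodopa arm, 20.97 ± 5.95 with 7.5 mg/kg and 20.2 ± 2.804 with 15 mg/kg (SD, n = 5, 10 and 10).

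Collagen IV, the sheet-forming collagen of basement membranes, is encoded by 6 genes arranged as head-to-head pairs, in RefSeq's GRCr8 annotation as in other mammals. The starts of Col4a1 and Col4a2 lay 76 bases apart, those of Col4a3 and Col4a4 412 and those of Col4a5 and Col4a6 1414. The sequence between the first pair and the stretch shared by the upstream windows of the second pair are shown because each serves as upstream sequence for both genes of a pair whose transcripts were compared here. The first lies at chr16:84885521-84885596, has a GC content of 78.9% and holds 1 GC box, GGGCGG, read on the minus strand and capitalised as its complement. The second lies at chr9:91323740-91323827 and has a GC content of 65.9% and none of the motifs searched. Both are from RefSeq, GRCr8, plus strand.
Col4a1 to Col4a2 interval: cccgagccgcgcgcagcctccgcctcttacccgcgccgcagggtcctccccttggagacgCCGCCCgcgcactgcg
Col4a3 and Col4a4 shared upstream: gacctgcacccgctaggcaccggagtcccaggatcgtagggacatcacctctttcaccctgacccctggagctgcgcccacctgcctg

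The motifs searched on both strands were GGGCGG (GC box), CCAAT and TATAAA, which do not overlap in these sequences. A GC box was held by 18.1% of 33469 RefSeq promoter windows cut to 76 bases and by 20% of those cut to 88 bases. In the 250 bases before the start, 29 of the 45 members with an entry (64.4%) held a GC box, 14 (31.1%) a CCAAT and 6 (13.3%) a TATAAA, beside 30.5%, 34% and 12.9% of all windows. A member was counted if any window under its symbol matched, while the other shares are per window. The units are therefore unlike, and a difference between them was not tested. A match is a run of letters and not a shown binding site.

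The head-to-head partners did not have like values in every case. Col4a1 had 33.7, 56.8, 36.9, 34.2 and 38.8 CPM in the levodopa animals, 27.8 to 37.3 CPM (median 32.4) at 7.5 mg/kg and 26.2 to 36.6 CPM (median 32.6) at 15 mg/kg. Levodopa replicate 2 stood above all other animals, and the remaining 4 overlapped both trapidil arms. Its log2 fold change was -0.30 ± 0.10 at 15 mg/kg (edgeR adjusted p = 0.0891) and -0.30 ± 0.10 at 7.5 mg/kg (edgeR adjusted p = 0.251), with 10 of 10 animals below the levodopa mean at either dose. Without levodopa replicate 2 the value at 15 mg/kg was -0.14 (edgeR adjusted p = 0.471), and that at 7.5 mg/kg also -0.14. Col4a2, its partner in the main collagen IV trimer, had 36.4, 32.1, 33.8, 29.6 and 41.9 CPM in the levodopa animals, 20.6 to 41 CPM (median 33.5) at 7.5 mg/kg and 30.7 to 38.1 CPM (median 32.7) at 15 mg/kg. Its arms overlapped throughout, and levodopa replicate 2 lay among its lower levodopa values.

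Across the 25 libraries Col4a1 and Col4a2 had r = 0.28 (permutation p = 0.156) and rho = 0.25 (permutation p = 0.222). The r of this pair rose to 0.47 without the 2 farthest libraries, levodopa replicate 2 and 15 mg/kg replicate 3. Over the 5 pairs of partner chains tried, theirs was the weakest relation. The highest was that of Col9a2 and Col9a3, partner chains of collagen IX, with r = 0.88 and rho = 0.89 (permutation p = 1e-05 for each, adjusted p = 5e-05) and r = 0.85 without the 2 farthest libraries. Col4a5 and Col4a6 had r = 0.73 and rho = 0.69 (permutation adjusted p = 7.5e-05 and 0.0006; r = 0.64 without the 2 farthest). Col6a1 and Col6a2 had r = 0.72 and rho = 0.65 (permutation adjusted p = 0.000133 and 0.00118; r = 0.68 without the 2 farthest). Col4a3 and Col4a4 had r = 0.64 and rho = 0.54 (permutation adjusted p = 0.000687 and 0.00764; r = 0.50 without the 2 farthest).

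**Figure D3:**
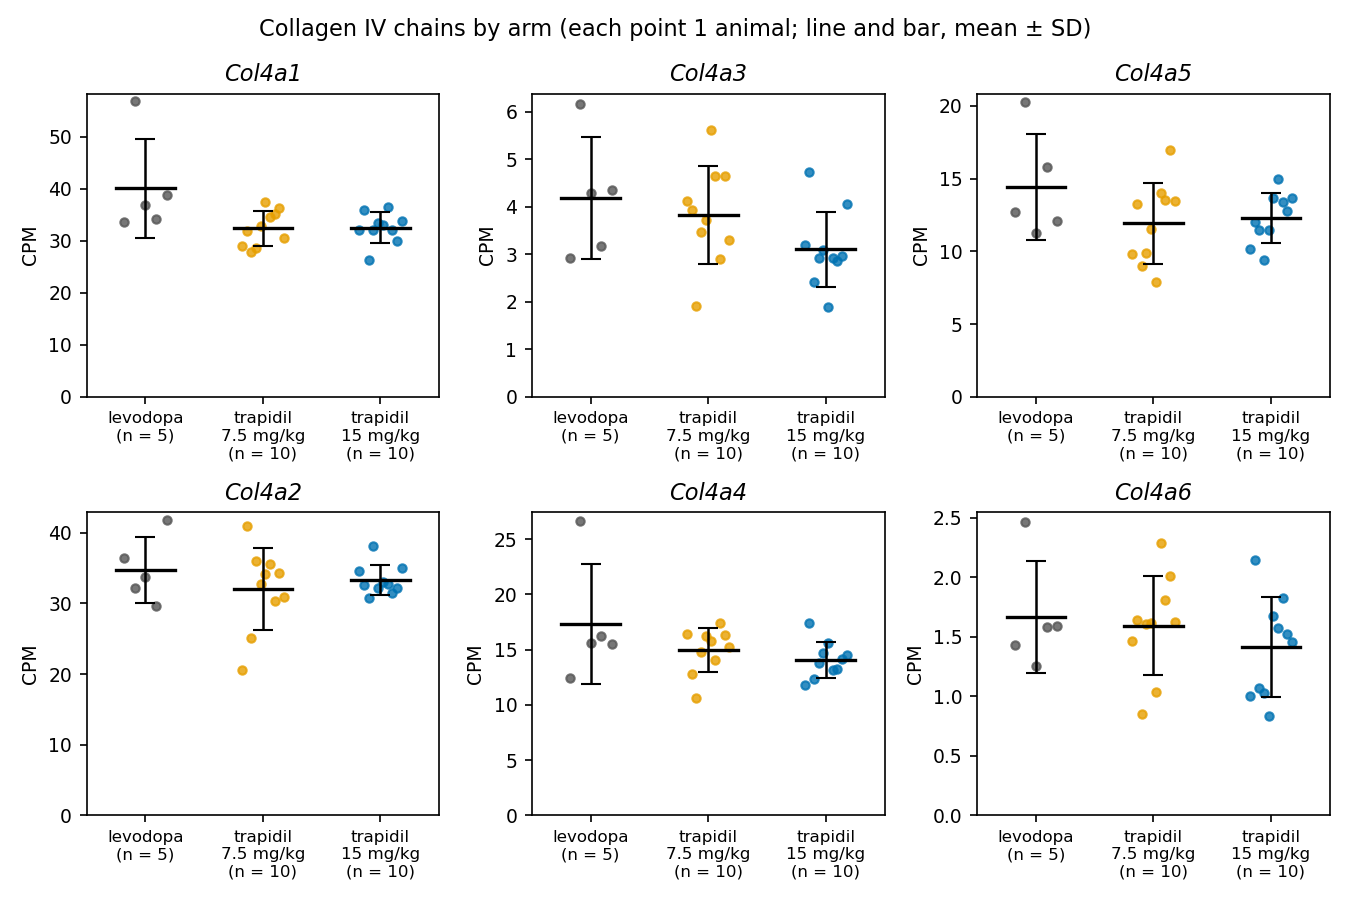
CPM of the 6 collagen IV genes in each animal by arm, with the mean and SD as line and bar; the columns are the head-to-head pairs. Levodopa replicate 2 is the top levodopa animal for 5 of the 6 genes (56.7 CPM for Col4a1) but not for Col4a2 (32.1 CPM).

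The minor collagen IV chains, named after their values were seen, leaned the same way without a call. Col4a4 had 12.5, 26.7, 15.6, 16.2 and 15.5 CPM in the levodopa animals, 10.6 to 17.4 CPM (median 15.5) at 7.5 mg/kg and 11.8 to 17.4 CPM (median 13.97) at 15 mg/kg. The value at 15 mg/kg was -0.30 ± 0.13 (edgeR adjusted p = 0.194), and without levodopa replicate 2, again the highest animal, -0.09 (edgeR adjusted p = 0.798). Col4a3 averaged 4.18 ± 1.29 CPM in the levodopa arm, 3.83 ± 1.03 with 7.5 mg/kg and 3.101 ± 0.792 with 15 mg/kg (SD, n = 5, 10 and 10), with -0.43 ± 0.21 at 15 mg/kg (edgeR adjusted p = 0.245; -0.25 without levodopa replicate 2). Col4a5 averaged 14.4 ± 3.67 CPM in the levodopa arm, 11.9 ± 2.797 with 7.5 mg/kg and 12.3 ± 1.74 with 15 mg/kg, and Col4a6 averaged 1.67 ± 0.469 CPM in the levodopa arm, 1.595 ± 0.418 with 7.5 mg/kg and 1.41 ± 0.421 with 15 mg/kg (SD, n = 5, 10 and 10). The 2 network collagens outside type IV, Col8a1 and Col8a2, had 0.110 to 1.85 and 0.780 to 4.81 CPM over all animals.

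Laminin chains gave no edgeR call, while DESeq2 called Lama4 at 15 mg/kg. Lama4, the alpha chain of endothelial laminin, had 12.1, 20.6, 13.5, 12.8 and 13.4 CPM in the levodopa animals, 8.74 to 15.1 CPM (median 10.6) at 7.5 mg/kg and 9.12 to 11.98 CPM (median 11.03) at 15 mg/kg. Every 15 mg/kg animal lay below every levodopa animal, by a narrow gap between 11.98 and 12.07 CPM, and the 7.5 mg/kg animals overlapped both. Against levodopa the log2 fold change was -0.40 ± 0.12 at 15 mg/kg (edgeR adjusted p = 0.0751) and -0.36 ± 0.12 at 7.5 mg/kg (edgeR adjusted p = 0.287), and without levodopa replicate 2 it was -0.23 at 15 mg/kg (edgeR adjusted p = 0.37) and -0.19 at 7.5 mg/kg. The oligodendrocyte covariate gave -0.17 at 15 mg/kg. Since no other member separated the arms, its upstream sequence is shown, 250 bases from RefSeq on the plus strand of GRCr8 at chr20:43946648-43946897, with a TATAAA in capitals, a run that 12.9% of all such windows hold.
Lama4 upstream: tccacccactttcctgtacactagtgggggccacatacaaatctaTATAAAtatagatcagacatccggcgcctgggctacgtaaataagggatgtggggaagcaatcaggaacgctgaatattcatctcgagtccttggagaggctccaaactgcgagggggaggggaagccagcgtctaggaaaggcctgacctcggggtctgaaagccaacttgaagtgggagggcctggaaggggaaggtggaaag

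Lamb3, a beta chain best known from epithelia, averaged 2.23 ± 0.715 CPM in the levodopa arm, 2.28 ± 0.5297 with 7.5 mg/kg and 2.27 ± 0.409 with 15 mg/kg (SD, n = 5, 10 and 10), with a 15 mg/kg mean close to that of the levodopa arm. Lamc3, named after its values were seen, averaged 7.28 ± 2.42 CPM in the levodopa arm, 5.69 ± 1.38 with 7.5 mg/kg and 5.39 ± 0.918 with 15 mg/kg (SD, n = 5, 10 and 10), with -0.43 ± 0.17 at 15 mg/kg (edgeR adjusted p = 0.158; -0.24 without levodopa replicate 2).

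The widely used beta and gamma chains, Lamb1 and Lamc1, overlapped between all arms. Lamc1, the gamma chain shared by most laminins, had 48.1, 48.1, 53.3, 48.9 and 54.9 CPM in the levodopa animals, 38.9 to 60.1 CPM (median 47.9) at 7.5 mg/kg and 43.8 to 53.1 CPM (median 45.9) at 15 mg/kg, with a log2 fold change of -0.12 ± 0.07 at 15 mg/kg (edgeR adjusted p = 0.355). Lamb1 averaged 34.4 ± 6.68 CPM in the levodopa arm, 33.8 ± 4.803 with 7.5 mg/kg and 35.7 ± 3.55 with 15 mg/kg (SD, n = 5, 10 and 10). Lamb2, the beta chain of vascular and synaptic laminins, had 58.1, 101, 54.4, 61.2 and 63.6 CPM in the levodopa animals, 45.9 to 72 CPM (median 60.5) at 7.5 mg/kg and 48.7 to 69.4 CPM (median 60.8) at 15 mg/kg. Its log2 fold change of -0.16 ± 0.11 at 15 mg/kg (edgeR adjusted p = 0.421) turned to 0.03 without levodopa replicate 2. Among the alpha chains, Lama2, whose loss causes a muscular dystrophy with white matter changes in humans, averaged 5.71 ± 1.56 CPM in the levodopa arm, 4.63 ± 1.57 with 7.5 mg/kg and 4.68 ± 1.13 with 15 mg/kg, and Lama5 averaged 13.5 ± 5.35 CPM in the levodopa arm, 13.3 ± 2.88 with 7.5 mg/kg and 14.1 ± 3.29 with 15 mg/kg (SD, n = 5, 10 and 10).

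Fibrillar collagens and their partners had values of both signs, again with no edgeR call. Col27a1 and Col11a1, fibrillar chains best known from cartilage, are named after their values were seen. Col27a1 had 11.5, 20.5, 13.4, 11.1 and 21.9 CPM in the levodopa animals, 5.59 to 33.4 CPM (median 25.9) at 7.5 mg/kg and 19.7 to 28.5 CPM (median 22.99) at 15 mg/kg. The 7.5 mg/kg replicate 1 was far below its arm, all 10 animals at 15 mg/kg were above the levodopa mean, and the ranges overlapped. The log2 fold change was 0.60 ± 0.23 at 15 mg/kg (edgeR adjusted p = 0.147) and 0.62 ± 0.23 at 7.5 mg/kg (edgeR adjusted p = 0.333). Without levodopa replicate 2 and the 7.5 mg/kg replicate 1 the value at 15 mg/kg was 0.72 (edgeR adjusted p = 0.0421), past the threshold. Col11a1 averaged 10.2 ± 3.41 CPM in the levodopa arm, 14.8 ± 5.35 with 7.5 mg/kg and 15.2 ± 2.703 with 15 mg/kg (SD, n = 5, 10 and 10), with 0.57 ± 0.23 at 15 mg/kg (edgeR adjusted p = 0.172; 10 of 10 animals above the levodopa mean). With the oligodendrocyte covariate the Col11a1 value at 15 mg/kg was 0.07 ± 0.23.

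Col1a1 and Col3a1, the classic fibril collagens of vessel walls and meninges, and Col5a2, which helps start fibrils, had negative values. Col1a1 had 8.43, 11.8, 8.83, 7.55 and 12.1 CPM in the levodopa animals, 4.63 to 16.6 CPM (median 6.62) at 7.5 mg/kg and 4.68 to 10.2 CPM (median 6.99) at 15 mg/kg, with -0.42 ± 0.21 at 15 mg/kg (edgeR adjusted p = 0.268). Its span overlaps Sgca in RefSeq, which had -0.40 ± 0.17 at 15 mg/kg (edgeR adjusted p = 0.185), and Col1a2, the partner chain of collagen I, was listed at 0 throughout, which may be a matter of annotation or counting, so only Col1a1 gives values for collagen I. Col3a1 averaged 8.57 ± 3.29 CPM in the levodopa arm, 5.92 ± 1.31 with 7.5 mg/kg and 6.66 ± 1.81 with 15 mg/kg (SD, n = 5, 10 and 10), and its value of -0.54 ± 0.20 at 7.5 mg/kg (edgeR adjusted p = 0.323) was -0.28 without levodopa replicate 2. Col5a2 had 19.8, 22.02, 23.9, 9.76 and 38.7 CPM in the levodopa animals, 10.2 to 28.9 CPM (median 15.7) at 7.5 mg/kg and 10.6 to 19.95 CPM (median 14.5) at 15 mg/kg. The levodopa animals covered the whole range of the trapidil animals, and the log2 fold change was -0.62 ± 0.23 at 15 mg/kg (edgeR adjusted p = 0.131; -0.33 without levodopa replicate 5). Col24a1, named after its values were seen, had 170 reads in all and averaged 0.525 ± 0.421 CPM in the levodopa arm, 0.498 ± 0.259 with 7.5 mg/kg and 0.227 ± 0.143 with 15 mg/kg (SD, n = 5, 10 and 10). It gave -1.17 ± 0.45 at 15 mg/kg against levodopa (edgeR adjusted p = 0.151; -0.57 without levodopa replicate 5) and -1.09 ± 0.39 between 15 and 7.5 mg/kg (edgeR adjusted p = 0.999). Col11a2 averaged 203 ± 55.6 CPM in the levodopa arm, 238 ± 77.7 with 7.5 mg/kg and 226 ± 45.5 with 15 mg/kg (SD, n = 5, 10 and 10).

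Among the fibril-associated collagens, Col22a1, a chain found at tissue junctions such as muscle to tendon, had the largest positive value of any member. It had 0.0551, 0.679, 0.119, 0.422 and 0.213 CPM in the levodopa animals, 0.0917 to 2.35 CPM (median 0.5995) at 7.5 mg/kg and 0.294 to 2.33 CPM (median 1.19) at 15 mg/kg, from 399 reads over all libraries. Every 15 mg/kg animal was above the levodopa median, and the ranges overlapped. The log2 fold change was 2.07 ± 0.62 at 15 mg/kg (edgeR adjusted p = 0.0751) and 1.605 ± 0.63 at 7.5 mg/kg (edgeR adjusted p = 0.353). DESeq2 called it at 15 mg/kg, and with the oligodendrocyte covariate the value was 0.72 ± 0.67 (edgeR adjusted p = 0.873). Col9a2 and Col9a3, named after their values were seen, averaged 9.74 ± 2.498 CPM in the levodopa arm, 10.2 ± 2.94 with 7.5 mg/kg and 8.61 ± 3.14 with 15 mg/kg for Col9a2, and 15.8 ± 4.35 CPM in the levodopa arm, 14.8 ± 4.31 with 7.5 mg/kg and 11.96 ± 3.44 with 15 mg/kg for Col9a3 (SD, n = 5, 10 and 10). Col16a1 averaged 24.5 ± 5.81 CPM in the levodopa arm, 24.4 ± 9.89 with 7.5 mg/kg and 22.5 ± 4.49 with 15 mg/kg (SD, n = 5, 10 and 10).

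**Figure D4:**
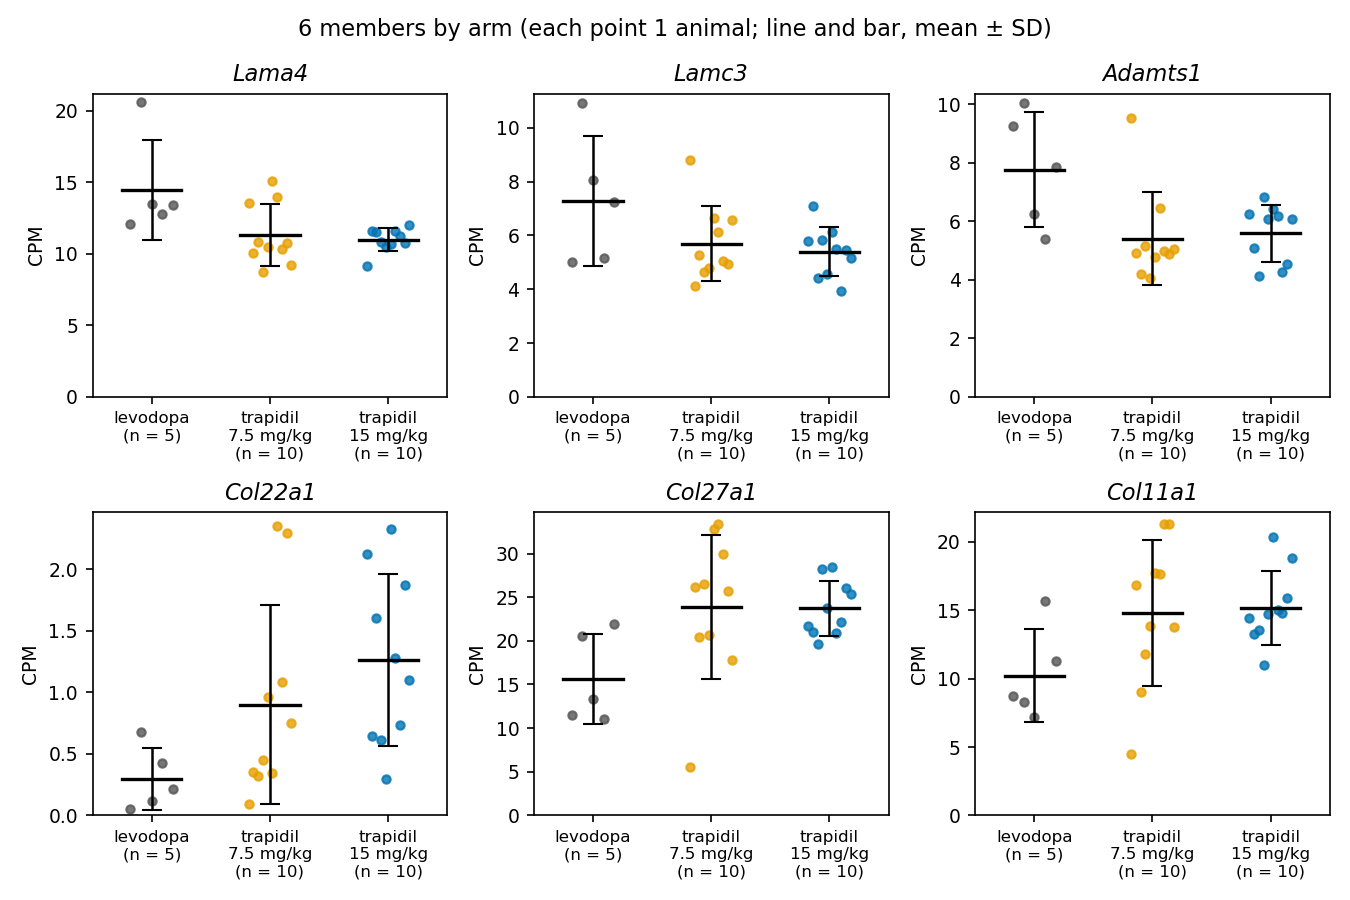
CPM of Lama4, Lamc3, Adamts1, Col22a1, Col27a1 and Col11a1 in each animal by arm, with the mean and SD as line and bar. The 15 mg/kg animals lie wholly below the levodopa animals for Lama4 (at most 11.98 against at least 12.07 CPM), and overlap them for the other 5 genes.

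Of the remaining collagens, Col6a1 and Col6a2, the bead-forming chains of collagen VI, averaged 8.04 ± 2.33 CPM in the levodopa arm, 6.36 ± 1.66 with 7.5 mg/kg and 6.502 ± 0.848 with 15 mg/kg for Col6a1, and 8.34 ± 3.24 CPM in the levodopa arm, 8.23 ± 1.96 with 7.5 mg/kg and 8.61 ± 1.202 with 15 mg/kg for Col6a2 (SD, n = 5, 10 and 10). Col6a1 had -0.34 ± 0.17 at 7.5 mg/kg (edgeR adjusted p = 0.427; -0.22 without levodopa replicate 2). Col18a1, the source of the angiogenesis inhibitor endostatin, had 73.7, 58.5, 87.1, 66.1 and 123 CPM in the levodopa animals, 59.3 to 96.1 CPM (median 68.04) at 7.5 mg/kg and 56.8 to 86.2 CPM (median 71.3) at 15 mg/kg. Its arms overlapped, and the value of -0.20 ± 0.14 at 15 mg/kg (edgeR adjusted p = 0.435) was -0.01 without levodopa replicate 5. Col25a1, a transmembrane collagen of neurons whose shed part was found in Alzheimer plaques in humans, averaged 5.898 ± 1.55 CPM in the levodopa arm, 6.55 ± 1.02 with 7.5 mg/kg and 6.71 ± 1.19 with 15 mg/kg (SD, n = 5, 10 and 10).

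Each tested member was compared with the oligodendrocyte and the endothelial marker sum across the 25 libraries. Each value was a log2 CPM or a log2 marker sum from the same library and scaling. Levodopa replicate 2 was the highest library in both sums, and a member could follow both. Other marker lists were not compared in this way. Of 58 relations with the oligodendrocyte sum, 11 were positive and 6 negative at a permutation adjusted p under 0.05 for r. Of 58 with the endothelial sum, 23 were positive and 2 negative. Fewer relations passed for rho with either sum, and some r depended on the 2 farthest libraries. With the endothelial sum, Col3a1 had r = 0.58 (permutation adjusted p = 0.387 for rho), but 0.12 without them. Col4a4 had r = 0.74 (permutation adjusted p = 0.187 for rho), but 0.34 without them. Col6a1 kept its relation, with r = 0.72 and 0.73 without them. After Adamts4, Col9a3 had the highest r with the oligodendrocyte sum, 0.86 (rho = 0.85, permutation adjusted p = 0.00029 for both; r = 0.86 without the 2 farthest, 0.81 and 0.90 within 7.5 and 15 mg/kg). Col22a1 had the lowest, -0.69 (rho = -0.77, permutation adjusted p = 0.00232 and 0.000435; r = -0.73 without the 2 farthest, -0.73 and -0.62 within 7.5 and 15 mg/kg).

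Lama4 had the highest r with the endothelial sum, 0.86 (rho = 0.82, permutation adjusted p = 0.00029 and 0.00058; r = 0.72 without the 2 farthest, 0.83 and 0.27 within 7.5 and 15 mg/kg). Lamb2 followed with 0.84 (rho = 0.61, permutation adjusted p = 0.00058 and 0.018; r = 0.63 without the 2 farthest, 0.60 and 0.83 within 7.5 and 15 mg/kg). Col4a1 had 0.81 (rho = 0.57, permutation adjusted p = 0.00239 and 0.0259; r = 0.50 without the 2 farthest, 0.31 and 0.69 within 7.5 and 15 mg/kg). Col4a2 had -0.15 (rho = -0.05, permutation adjusted p = 0.506 and 0.883). The relation of Adamts3, -0.79 (rho = -0.38, permutation adjusted p = 0.0166 and 0.187), was -0.18 without the 2 farthest libraries and so rested on them, levodopa replicate 2 among them. With the oligodendrocyte sum, Lama4 had r = 0.61 and rho = 0.47 (permutation adjusted p = 0.00683 and 0.0782). That r was 0.38 without the 2 libraries farthest in the oligodendrocyte sum.

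All 11 tested endothelial markers had a negative log2 fold change at 15 mg/kg, 10 of them with an unadjusted p under 0.05. Of these 1 was called, Slco1a4, a blood-brain barrier transporter, which fell by 0.47 ± 0.12 (edgeR adjusted p = 0.0463). The call ended when any of 16 of the 25 libraries was left out by itself, with the value at -0.23 without levodopa replicate 2 (edgeR adjusted p = 0.249). It also ended with limma-voom (-0.26, limma adjusted p = 0.0583) and without a low-count filter (edgeR adjusted p = 0.0524). Of the 15 endothelial markers 12 were in the table and 1 of these, Cldn5, was listed at 0 throughout. Their sum was 560.5 to 1002 CPM in the levodopa arm, 466.1 to 630.7 with 7.5 mg/kg and 467.4 to 567.9 with 15 mg/kg. Pericyte and smooth muscle markers summed to 168 to 354 CPM in the levodopa arm, 178 to 254 with 7.5 mg/kg and 178 to 256 with 15 mg/kg. Levodopa replicate 2 was the highest, and without it the levodopa sums reached 274.5 CPM. Of 13 tested, 12 were negative at 15 mg/kg and edgeR called none (3 at an unadjusted p under 0.05). Markers of vascular and meningeal fibroblasts summed to 294 to 552 CPM in the levodopa arm, 232 to 393 with 7.5 mg/kg and 218 to 312 with 15 mg/kg. Here too levodopa replicate 2 was the highest, and without it the levodopa sums reached 334.1 CPM. Of 11 tested, 10 were negative at 15 mg/kg and edgeR called none (5 at an unadjusted p under 0.05). Other marker lists were read at 15 mg/kg too. Astrocyte markers were negative in 12 of 12 and microglial markers in 11 of 12, with none called by edgeR (4 and 5 at an unadjusted p under 0.05). Levodopa replicate 2 had the highest sum of both, 8982 CPM for astrocyte and 777 CPM for microglial markers. The other 4 levodopa animals had 4801 to 5782 CPM and 434 to 551.4 CPM. Oligodendrocyte precursor markers were negative in 9 of 9 with 1 called, Sox10, and all 9 tested ependymal markers were positive with none called by edgeR (7 at an unadjusted p under 0.05). Of 7 tested cortical neuron markers 4 were negative and edgeR called none (2 at an unadjusted p under 0.05). Choroid plexus markers summed to 3.72 to 32.8 CPM in the levodopa arm, with replicate 2 the highest and the other 4 at 11.1 or less, 4.82 to 14.1 with 7.5 mg/kg and 5.69 to 13.8 with 15 mg/kg. Of 6 tested, 3 were negative and 1 fell, Ttr, by 5.11 ± 1.09 (edgeR adjusted p = 0.0217), a call that ended without levodopa replicate 2. The part of these cell types in the basement membrane and fibrillar collagen values was not tested.

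**Figure D5:**
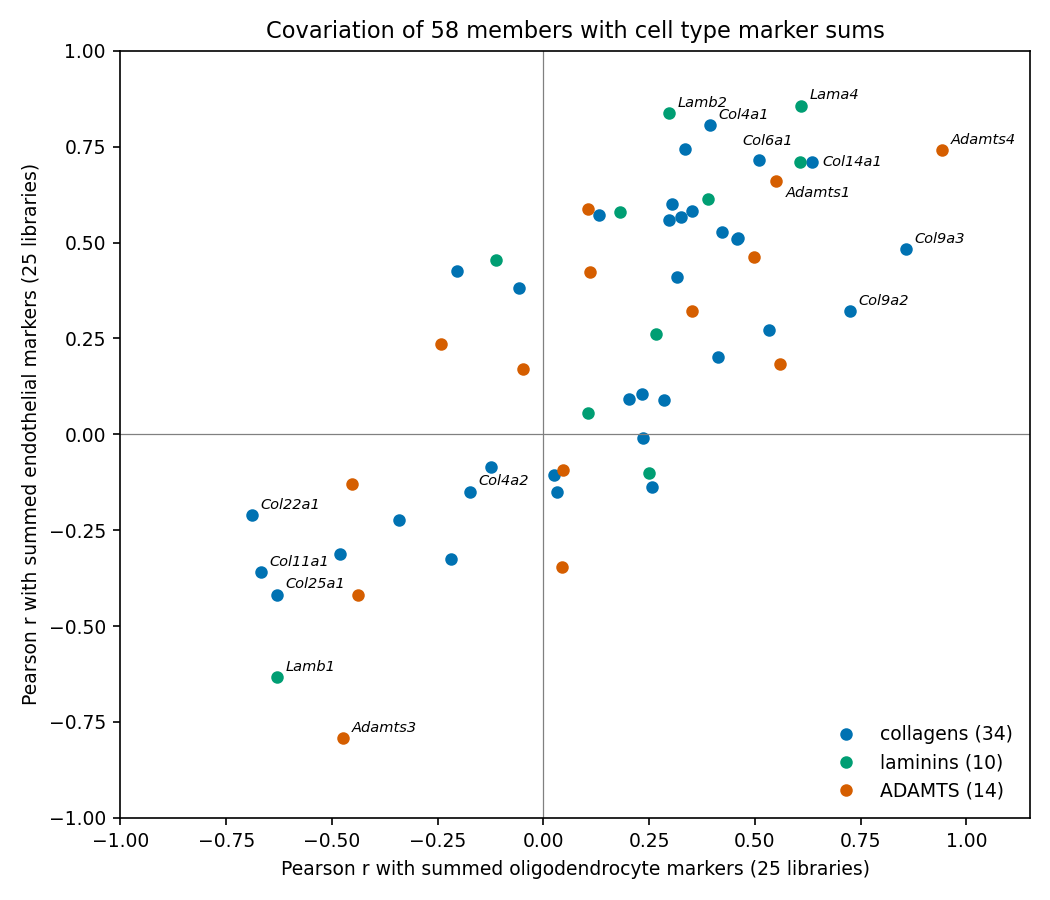
Pearson's r of each tested member with the summed oligodendrocyte markers (horizontal) and the summed endothelial markers (vertical) over 25 libraries, coloured by family. Adamts4 (0.94) and Col9a3 (0.86) lie farthest right, Lama4 (0.86) and Lamb2 (0.84) at the top, and Adamts3 (-0.79) at the bottom.

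Genes that act with collagens, laminins or ADAMTS proteases, members or not, were read from the same fit. Among 18 tested collagen and laminin receptors, 12 were negative and 6 positive at 15 mg/kg, and 1 fell, Adgrg6, an adhesion receptor for collagen IV and laminin needed for myelination by Schwann cells in mice and zebrafish. Its log2 fold change was -0.60 ± 0.16 (edgeR adjusted p = 0.0478), close to the threshold, and the call ended when any of 17 of the 25 libraries was left out by itself (-0.69 to -0.52 over all 25), levodopa replicate 2 giving -0.52 (edgeR adjusted p = 0.184). It also ended without a low-count filter (edgeR adjusted p = 0.0551). With the oligodendrocyte covariate its value was -0.10 (edgeR adjusted p = 0.91). Of 15 hyalectans and other ADAMTS substrates, 13 were negative at 15 mg/kg with a median of -0.39, and none was called by edgeR, 6 at an unadjusted p under 0.05, 3 by DESeq2 and 3 by limma-voom. The smallest p there was that of Vwf, von Willebrand factor, at -0.58 ± 0.16 (edgeR adjusted p = 0.0632; -0.30 without levodopa replicate 2).

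Collagen-processing enzymes and chaperones had 14 negative and 8 positive values at 15 mg/kg and no edgeR call (8 at an unadjusted p under 0.05), and DESeq2 and limma-voom each called P4ha2, a prolyl hydroxylase subunit. Its value was 0.32 ± 0.10 (edgeR adjusted p = 0.0751). Among 17 basement membrane partners 12 were negative, none was called by edgeR or limma-voom (6 at an unadjusted p under 0.05), and DESeq2 called Frem1, at 1.75 ± 0.50 (edgeR adjusted p = 0.0648). Among 8 ADAMTS-like proteins and inhibitors 6 were negative and none was called by edgeR (2 at an unadjusted p under 0.05), while DESeq2 and limma-voom called Timp4, a metalloproteinase inhibitor, at -0.67 ± 0.21 (edgeR adjusted p = 0.085; -0.45 without levodopa replicate 2). Of 10 matrix metalloproteinases 6 were negative and none was called by edgeR, DESeq2 or limma-voom (2 at an unadjusted p under 0.05), the smallest p being that of Mmp15 at -0.28 ± 0.13 (edgeR adjusted p = 0.217; -0.15 without levodopa replicate 2). In these 6 lists edgeR called none at 7.5 mg/kg, DESeq2 none and limma-voom 1, Mcam.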

How the data were processed

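Raw read counts per gene, as the authors deposited them, covered 28909 names in 25 libraries. Per the submitters' processing notes, FastQC, STAR, HTSeq and the Rnor_6.0 build were used; the sources used here give no versions, annotation or strand setting. Arms were read from the labels, and separate animals were assumed for the libraries. No 2 libraries of an arm agreed within sampling noise (lowest chi-square per degree of freedom 4.83). The members, gene lists and tests were chosen with earlier results of these data known.

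From the counts, filterByExpr left 14142 genes. edgeR 4.0.16 (R 4.3.3, TMM, glmQLFTest, two-sided) used all 25 libraries and arm as its factor; p-values were adjusted by Benjamini-Hochberg over the 14142 genes and called under 0.05. CPM use TMM-scaled totals, and errors of fold changes are standard errors. Animals were counted below a mean on log2(CPM + 2). Named were each called member, per role the smallest p and highest mean CPM, and 12 set genes; others are marked, and some genes are not reported here. Marker sums are summed CPM. DESeq2 1.42.0 and limma 3.58.1 were alternatives. Coordinates and sequences are RefSeq's, GRCr8 (45 of 59 members had an upstream window), not the files' build. The steps were tested on simulated counts.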

Additional observations from a re-analysis of the deposited data

Results flagged for a closer look

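Members named by the rule, and those marked as named after their values were seen, were checked in each arm for 1 animal apart from the rest of its arm. Of 111 such groups 15 had one. Chance gives about 1 in 20 for a group of normally distributed values. These groups share the same animals and are not independent, so the comparison is not a test. Levodopa replicate 2 accounted for 8, as the highest animal of its arm each time: Adamts4 at 99.1 CPM, Adamts9 at 7.22 CPM, Col3a1 at 14.3 CPM, Col4a1 at 56.8 CPM, Col4a4 at 26.7 CPM, Col4a6 at 2.47 CPM, Lama4 at 20.6 CPM and Lamb2 at 100.5 CPM. The 7.5 mg/kg replicate 1 was the highest of its arm for 3 genes, Adamts1 at 9.54 CPM, Adamts17 at 4.31 CPM and Col1a1 at 16.6 CPM. In the 15 mg/kg arm, replicate 4 was highest for Col24a1 (0.615 CPM) and Col9a2 (16.9 CPM) and replicate 6 for Col25a1 (9.79 CPM), and replicate 1 was lowest for Lama4 (9.12 CPM). Levodopa replicate 2 also had the highest endothelial marker sum, 1002 CPM, and the 7.5 mg/kg replicate 1 the smallest library, 10838513 counts. The latter animal had the highest oligodendrocyte and endothelial marker sums of its arm as well, 16690 and 630.7 CPM.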

How the results depend on the processing

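For 15 mg/kg against levodopa, 185 genes and 1 member were called. DESeq2 called 655 and 4 (Adamts4, Col22a1 and Lama4 among them), limma-voom with quality weights 715 and 3 (Adamts4 and Col27a1 among them), a threshold of 0.10 gave 862 and 5, a fit of the 2 arms alone 448 and 5, and an oligodendrocyte covariate 8 and 0. For 7.5 mg/kg, 4 genes and no member were called; no low-count filter gave 7 genes, DESeq2 53, limma-voom 102 with 1 member, a threshold of 0.10 11 and the 2 arms alone 1. Between the doses 4 genes were called, 13 by limma-voom. With levodopa replicate 2 left out together with replicate 1 of the 7.5 mg/kg arm there were 76 genes and 2 members (Col27a1 among them) at 15 mg/kg, 27 and 1 (Col27a1) at 7.5 mg/kg and 9 genes between the doses; this choice and the covariate were made after seeing the data. RLE and upper-quartile scaling stayed within 1.5 times of every count.

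Leaving out 1 library at a time gave 9 to 894 genes and 0 to 7 members at 15 mg/kg, 1 to 70 and 0 to 2 at 7.5 mg/kg, and 4 to 8 and 0 to 0 between the doses. No member was called at 15 mg/kg without levodopa replicate 2 (20 genes) or 3 (9 genes). Without levodopa replicate 4, 7 members were (with Adamts1, Adamts4, Col24a1, Col4a1, Col5a2 and Lama4; 894 genes), and without the 7.5 mg/kg replicate 1, 6 (with Adamts1, Adamts4, Col22a1, Col27a1 and Lama4; 639 genes). Adamts4 ranged from -0.81 to -0.52 over these fits, and its adjusted p from 0.00187 to 0.765 over all alternatives.

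Replicate numbers were not shown to pair the animals: correlations of same-numbered animals ran from -0.415 to 0.197 at 15 mg/kg and from -0.306 to 0.206 at 7.5 mg/kg. With the number as a replicate block 0 genes and 0 members were called at 15 mg/kg, 0 genes at 7.5 mg/kg and 4 between the doses; Adamts4 was then -0.64 (edgeR adjusted p = 0.174).

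Signs turned for Lamb2 at 15 mg/kg with limma-voom (0.0165) and with both named libraries out (0.027); its single-library range was -0.23 to 0.0269 at 15 mg/kg and -0.25 to 0.0022 at 7.5 mg/kg. At 7.5 mg/kg the single-library range was -0.31 to 9e-04 for Col4a4 and -0.27 to 0.0181 for Col18a1. With the oligodendrocyte covariate signs turned for Adamts17 (0.19), Col9a3 (0.22), Col25a1 (-0.11), Mmp15 (0.12) and Timp4 (0.0645) at 15 mg/kg, and for Col25a1 (-0.0177), Mmp15 (0.0255) and Timp4 (0.0768) at 7.5 mg/kg. The cause was not tested.

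Depth limits members with few reads, such as Col22a1 with 399 and Col24a1 with 170 over all libraries, and a p over the threshold does not show that arms were alike. The levodopa arm holds 5 animals.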
